A study of Mus musculus with 2 samples.

Results

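The 41 mitosis genes described here encode proteins that drive a cell into mitosis, condense and separate its chromosomes, build the spindle and end division. They were chosen by symbol from a given list, and all 41 were found in both gene tables of the study, among 27514 genes that the tables share. The study used adenoma organoids from the intestine of 17 week old C57BL/6 mice of genotype ApcMin/+, in which 1 copy of the tumour suppressor gene Apc carries the Min mutation. The control culture received no fusion protein, and the other received RSPO1-Fc, in which R-spondin 1, a secreted protein that strengthens Wnt signals, is joined to an antibody Fc region, at 10 µg/ml per the treatment protocol (a second label of that sample gives milligrams). Each culture gave 1 droplet library with 3′ counting of unique molecular identifiers (UMIs), in which a UMI stands for 1 captured RNA molecule. With 1 library per group no difference between the groups has a replicate check, no test was possible, and intervals are 95% intervals that cover counting error only.

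A dividing cell makes most mitosis transcripts late in its cycle. The complex of the kinase Cdk1 with cyclin B starts mitosis, the kinetochores and the spindle checkpoint hold the chromosomes until all are attached, and the anaphase-promoting ubiquitin ligase with Cdc20 then destroys cyclin B and lets the chromosomes part. Many of these genes are known to be repressed in resting cells and activated in G2 through a promoter element called CHR (cell cycle genes homology region), often next to CCAAT boxes that bind NF-Y. In the intestine, dividing cells normally sit in the crypts, where Wnt signals maintain them, and loss of Apc function keeps Wnt signalling active.

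Promoters of 35 of the 41 genes were in the RefSeq table (build GRCm38.p6). A window from 250 bases before to 50 bases after the first listed start of each gene was searched on both strands. The motifs were TTTGAA, the common core of the CHR, and CCAAT, and neither contains the other. In 30 of the 35 windows the last 30 bases lay in an annotated transcript of the gene. Whether the listed start is the one used in these cells was not tested. TTTGAA was in 25 of the 35 windows (71.4%), against 18.1% of the windows of all 27025 genes in the table. CCAAT was in 77.1% against 37.9%, and both motifs were in 60.0% against 7.12%. Among 29 S phase genes, which act in DNA replication before mitosis, TTTGAA was in 17.2% and CCAAT in 69.0%. Another 44 genes of mitosis, none of them among the 41 and called reference genes below, had TTTGAA in 65.8% of the 38 windows found. These are counts of letters and not of bound sites.

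The 150 bases before the start are shown for 6 genes that the results below turn on, from RefSeq, build GRCm38.p6, on the gene's own strand and 5′ to 3′, with TTTGAA or its reverse TTCAAA and CCAAT or its reverse ATTGG in capitals. Top2a, Mki67 and Hmgb2 were among the genes that varied most closely with the rest from cell to cell, and each had 2 TTTGAA in its full window. The motif count did not follow this closeness throughout. Ube2c and Cenpf, also among the closest, had 1 each, and the looser Cks1b and Ckap2l (correlations of 0.34 and 0.37 in the control) had 2. Plk1 stood lower with RSPO1-Fc in the cells of a mitotic class that is set below. Cks2 had the highest ratio between the libraries, and Nusap1 stood out most between the mitotic class and other control cells. Cks2 had no TTTGAA and Nusap1 neither motif in the searched window.
Top2a (chr11:99024190-99024339, minus strand): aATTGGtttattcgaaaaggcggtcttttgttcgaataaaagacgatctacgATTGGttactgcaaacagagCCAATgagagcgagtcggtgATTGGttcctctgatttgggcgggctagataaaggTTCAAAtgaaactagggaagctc
Mki67 (chr7:135716380-135716529, minus strand): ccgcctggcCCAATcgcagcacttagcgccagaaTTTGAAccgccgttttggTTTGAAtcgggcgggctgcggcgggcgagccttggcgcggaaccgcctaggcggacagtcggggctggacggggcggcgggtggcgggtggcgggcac
Hmgb2 (chr8:57511693-57511842, plus strand): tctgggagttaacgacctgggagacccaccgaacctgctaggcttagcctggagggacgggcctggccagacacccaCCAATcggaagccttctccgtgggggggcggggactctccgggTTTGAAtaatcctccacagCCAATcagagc
Plk1 (chr7:122159285-122159434, plus strand): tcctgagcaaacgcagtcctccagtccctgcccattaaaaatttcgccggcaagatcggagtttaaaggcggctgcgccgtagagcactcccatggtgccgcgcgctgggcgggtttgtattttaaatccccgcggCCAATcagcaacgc
Cks2 (chr13:51645082-51645231, plus strand): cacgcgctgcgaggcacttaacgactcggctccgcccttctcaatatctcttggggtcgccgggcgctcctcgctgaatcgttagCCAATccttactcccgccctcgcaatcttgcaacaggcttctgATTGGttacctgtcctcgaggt
Nusap1 (chr2:119618148-119618297, plus strand): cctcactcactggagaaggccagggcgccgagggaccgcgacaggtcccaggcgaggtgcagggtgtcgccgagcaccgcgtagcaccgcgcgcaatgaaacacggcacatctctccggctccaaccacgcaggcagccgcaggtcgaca

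Epithelial cells were barcodes with at least 9810 UMIs in the control or 5960 in the RSPO1-Fc library and at least 5 UMIs of Epcam, an epithelial adhesion gene. They numbered 1881 without and 2751 with RSPO1-Fc, with medians of 27736 and 23548 UMIs, and the 2 libraries shared 0 barcodes at these limits. In these cells 6 epithelial markers summed to 7677 and 9504 CPM (UMIs scaled to a total of 1e+06), while 8 macrophage markers summed to 91.1 and 4.11, 8 endothelial markers to 59.1 and 32.4 and 8 fibroblast markers to 60.8 and 1.02; 4 of the macrophage markers were at 0 in the RSPO1-Fc cells. The 4 neutrophil markers summed to 169 and 0.270 CPM, the 6 pericyte markers to 49.3 and 12.2 and the 4 lymphocyte markers to 0.359 and 0.0853. The control epithelial cells included 24, 8 and 13 cells with at least 4 macrophage, endothelial or fibroblast markers at 2 or more UMIs each, and the RSPO1-Fc ones 0; a further count gave 23 control cells with 4 neutrophil and 5 with at least 4 pericyte markers, and 0 with RSPO1-Fc. The libraries also differed in ways other than RSPO1-Fc. The control file lists 6794880 barcodes and 31053 genes and the RSPO1-Fc file 737280 and 27998, as different versions of the droplet chemistry and annotation would, and control epithelial cells held 100820 UMIs of Xist, which is made from the inactive X chromosome of females, where RSPO1-Fc epithelial cells held 3. Chemistry and the source of the organoids therefore cannot be told apart from RSPO1-Fc in any ratio between the libraries. In summed levels, more dividing cells and more RNA of these genes per cell cannot be told apart either, which is why cells were also classed below.

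Over all epithelial cells the 41 genes together made up more of the RNA with RSPO1-Fc. Their summed level was 2430 CPM (2418 to 2442) without RSPO1-Fc and 3669 CPM (3655 to 3683) with it, a ratio of 1.51 (1.5 to 1.52), and 34 of 41 stood higher. Of the 31 with at least 20 CPM in either library, 12 were at least 2-fold higher and 0 at least 2-fold lower. Among all 6911 genes at that level, 7.23% were at least 2-fold higher and 18.7% at least 2-fold lower. The median log2 ratio, with a pseudocount of 1 CPM, was 0.32 for the 31 genes and −0.18 for all genes. The other 10 genes were under 20 CPM in both libraries, and 3 of the 31 reached it with RSPO1-Fc alone, 2 of them among the 12. Without that limit, 15 of the 41 genes were at least 2-fold higher and 0 lower, with a median ratio of 1.36. The ratio depended on scaling: composition-based TMM factors raised every ratio by 1.27 (0.34 on the log2 scale), which gave a summed ratio of 1.91 and turned the 26 higher and 5 lower genes of the 31 into 31 higher and 0 lower.

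**Figure D1:**
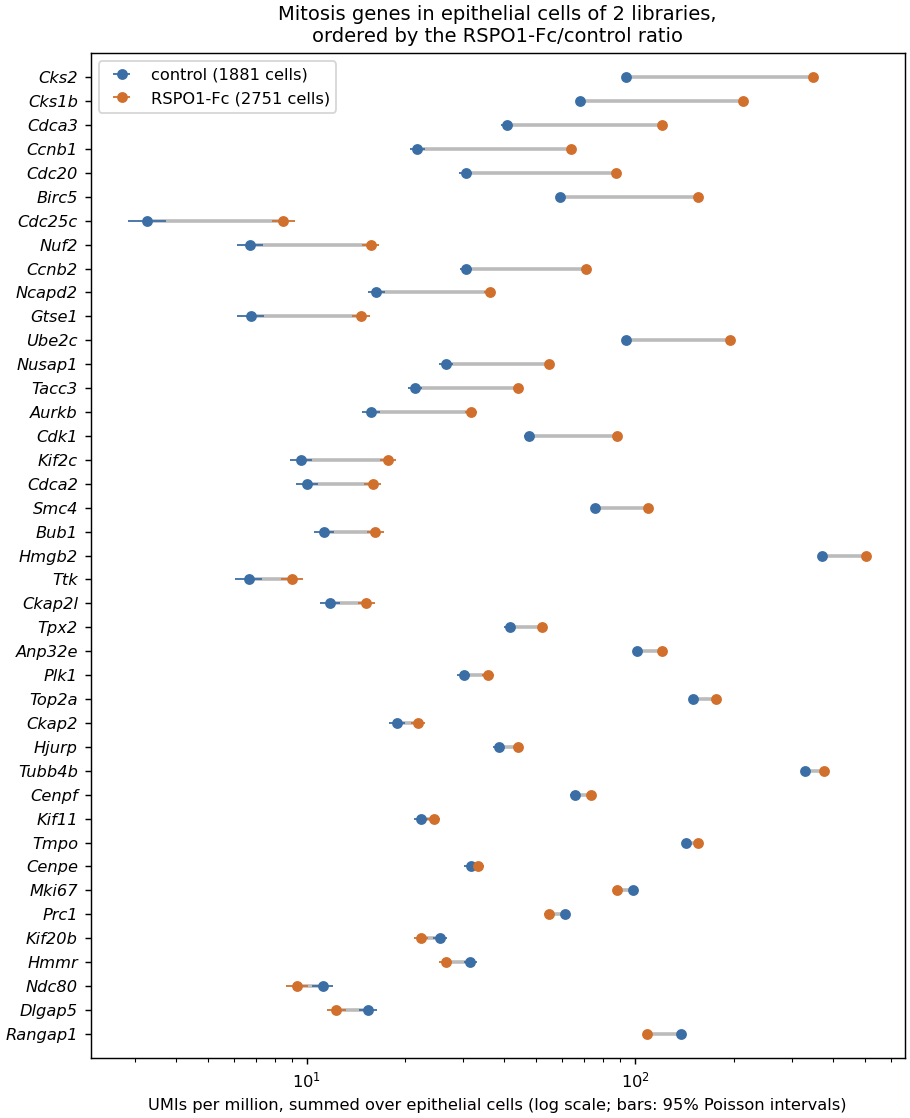
Levels of the 41 mitosis genes in CPM (log axis) summed over control and RSPO1-Fc epithelial cells, ordered by ratio, with 95% Poisson intervals. Cks2, at the top, had 93.9 and 347 CPM, and the 7 genes at the bottom, from Mki67 down, were the ones lower with RSPO1-Fc before composition scaling.

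The genes of mitotic entry had ratios of 1.19 to 3.70, 8 of 8 above 1, with a median of 2.76. Cks2 (chr13:51645232-51650660, plus strand), a small subunit that docks Cdk1 onto its substrates, had 93.9 CPM in the control library and 347 CPM with RSPO1-Fc, 3.70-fold higher (3.60 to 3.81). Its paralogue Cks1b had 68.0 and 214 CPM, 3.14-fold higher (3.04 to 3.25). Cdca3, a trigger of mitotic entry that acts on the inhibitor kinase Wee1, had 40.7 and 121 CPM, 2.97-fold higher (2.84 to 3.1). Ccnb1, the cyclin B1 partner of Cdk1, had 21.8 and 63.7 CPM, 2.93-fold higher (2.76 to 3.11), while Cdk1 itself had 47.6 and 87.8 CPM, 1.85-fold higher (1.77 to 1.93). Ccnb2, a second B-type cyclin, was 2.32-fold higher (2.21 to 2.45), and Cdc25c, the phosphatase that activates Cdk1, went from 3.27 to 8.51 CPM. Plk1, the polo-like kinase of entry and spindle assembly, had 30.0 and 35.7 CPM, the lowest ratio of this group at 1.19 (1.12 to 1.26).

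The exit genes lay close behind. Cdc20, the activator of the anaphase-promoting complex, had 30.5 and 87.6 CPM, 2.88-fold higher (2.73 to 3.02), and Ube2c, its ubiquitin-conjugating enzyme, 93.6 and 195 CPM. The chromosomal passenger complex corrects faulty attachments, and both of its genes among the 41 were at least 2-fold higher. Birc5, known as survivin, had 59.3 and 155 CPM, and the kinase Aurkb 15.7 and 31.7 CPM. Cdca8 and Incenp, reference genes of the same complex, had ratios of 1.82 and 1.25.

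Chromosome, kinetochore and spindle genes stood nearer to 1. For the 7 chromosome genes the median ratio was 1.36: the chromatin protein Hmgb2 had 370 and 505 CPM, the topoisomerase Top2a 150 and 177 CPM, and the condensin subunits Smc4 and Ncapd2 were 1.44-fold and 2.21-fold higher. Cdca2, which targets a phosphatase to chromatin, and the histone chaperone Anp32e had ratios of 1.58 and 1.19. Mki67 (chr7:135689784-135716361, minus strand), the coat protein of mitotic chromosomes and the usual proliferation marker, was on the other side of 1, with 98.4 and 88.0 CPM, a ratio of 0.89 (0.86 to 0.93). The 7 kinetochore and checkpoint genes had a median of 1.14. They ranged from Nuf2, at 6.74 and 15.7 CPM, to its partner in the same microtubule-binding complex, Ndc80, at 11.2 and 9.36 CPM. Between them lay the checkpoint kinases Bub1 (1.43) and Ttk (1.35), the centromere chaperone Hjurp (1.14) and the large kinetochore proteins Cenpf (1.12) and Cenpe (1.05, 0.99 to 1.12), the last with an interval that held 1.

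Of the 13 spindle genes 9 stood higher, with a median of 1.16. Gtse1, Nusap1 and Tacc3, which bind or stabilise spindle microtubules, had ratios of 2.17, 2.06 and 2.06, and the microtubule depolymerase Kif2c 1.84. Ckap2l, Tpx2, Ckap2, the tubulin Tubb4b and the spindle motor Kif11 lay between 1.09 and 1.29. The 4 lower ones were Prc1, which bundles the central spindle (61.3 and 54.6 CPM), the motor Kif20b (25.4 and 22.3 CPM), Hmmr, which shapes spindle poles (31.5 and 26.5 CPM), and Dlgap5, which stabilises kinetochore fibres (15.4 and 12.3 CPM). Of the 2 genes of the nuclear envelope and of transport, Tmpo, a lamina protein, had 143 and 155 CPM, and Rangap1 (chr15:81704248-81745530, minus strand), which controls nuclear transport and sits at kinetochores in mitosis, had 138 and 109 CPM, the lowest ratio of the 41 at 0.79 (0.77 to 0.82). With TMM factors Mki67, Prc1, Kif20b, Hmmr and Rangap1, the 5 of these 7 lower genes with at least 20 CPM, turned to the higher side.

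The ratio moved with transcript length. Across the 41 genes the log2 ratio correlated with the log2 length of the longest annotated transcript at r = −0.62, given as a description because the genes share cells and libraries; across 6894 genes tested it was −0.22. The 20 shorter genes had a median ratio of 2.04 and the 21 longer ones 1.14. Whether the chemistry of the libraries has a part in this was not tested. Reads of Tubb4b, Hmgb2, Cks1b and Cks2 are uncertain, since closely similar copies exist in the genome and the treatment of shared reads is not given in the sources used here.

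The reference genes and the S phase genes also stood mostly higher with RSPO1-Fc. Of the 27 reference genes at 20 CPM or more, 24 stood higher and 8 at least 2-fold. Ect2, an activator of the cleavage furrow, had 20.6 and 62.3 CPM and Ccna2, cyclin A2, 24.3 and 70.1 CPM, while Pttg1, the securin that guards chromatid cohesion, had 43.0 and 23.9 CPM and the ubiquitin ligase G2e3 23.4 and 12.6 CPM. Of 31 S phase genes 24 stood higher and 8 at least 2-fold, led by the uracil glycosylase Ung (9.0 and 27.9 CPM) and the replication fork protein Tipin (26.2 and 77.8 CPM).

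To count dividing cells without using the 41 genes, each epithelial cell was thinned to 5000 randomly drawn UMIs, and a cell with UMIs of at least 8 of the 44 reference genes was put in a mitotic class. In the control 178 of 1881 cells fell in it, 9.46% (8.18 to 10.9), and with RSPO1-Fc 622 of 2751 did, 22.6% (21.1 to 24.2). Without thinning the shares were 28.4% and 64.8%, and with a stricter limit of 12 genes they were 5.21% and 7.16%. The class is a range and not a cell type: 96 control cells (5.10%) and 550 RSPO1-Fc cells (19.99%) lay within 6 to 9 genes, around the limit. The reference gene Pttg1 did not mark the class. Its level there was 0.80 times that of the other cells in the control and 0.92 times in the RSPO1-Fc library.

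The 2 libraries differed in the shape of the distribution. In the control, 32.9% of cells had 0 reference genes, 50.5% had 1 to 3, 7.18% had 4 to 7, 4.25% had 8 to 11 and 5.21% had 12 or more. In the RSPO1-Fc library the shares were 8.43%, 42.3%, 26.6%, 15.4% and 7.16%. Control cells thus sat mostly at the low end with a thin tail up to 26 genes, while RSPO1-Fc cells filled the middle and reached 22. The 41 genes themselves did the same: 54.1% of control cells and 10.8% of RSPO1-Fc cells had UMIs of 3 or fewer of them among the 5000, and the median cell had 3 and 8.

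**Figure D2:**
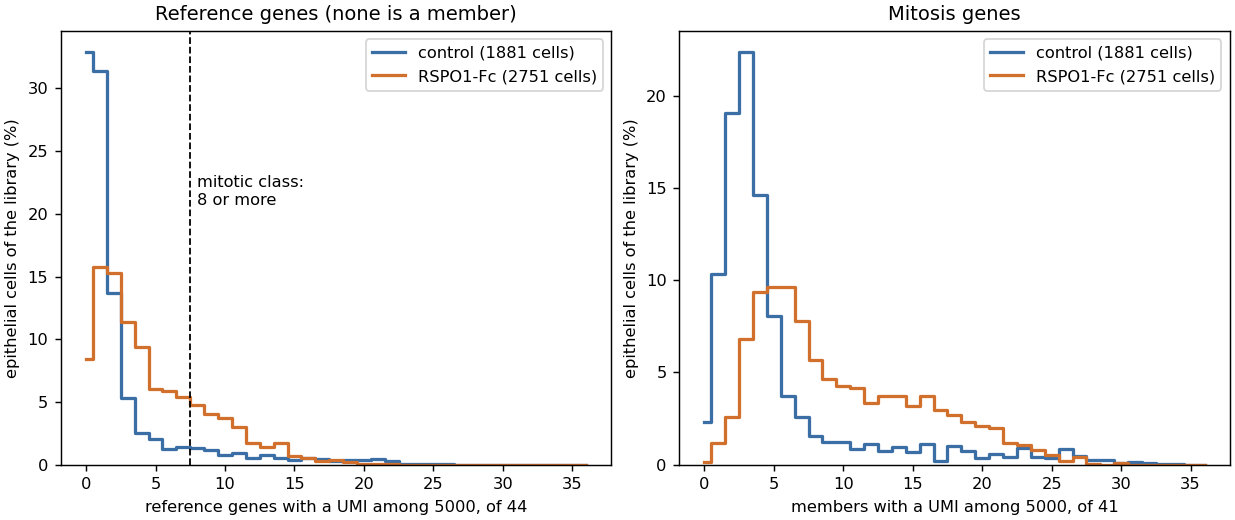
Share of epithelial cells (percent) by the number of genes with a UMI among 5000 drawn UMIs, for the 44 reference genes that set the mitotic class (left, dashed line at the limit) and the 41 mitosis genes (right). Control cells peak at 0 reference genes (32.9%) and at 3 mitosis genes (22.4%), and RSPO1-Fc cells spread over the middle.

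Level followed this count more steeply in the control. The summed level of the 41 genes over cells with 0, 1 to 3, 4 to 7, 8 to 11 and 12 or more reference genes was 762, 1019, 3621, 6492 and 12161 CPM in the control. In the RSPO1-Fc library it was 1263, 1738, 3815, 5983 and 8333 CPM. The RSPO1-Fc library was above the control in the 3 lower bins and below it in the 2 upper ones. Free RNA was measured beside this. Barcodes with over 100 and up to 500 UMIs, which hold mostly RNA from outside cells, carried the 41 genes at 2384 CPM (control) and 3488 CPM (RSPO1-Fc), and in cells with 0 reference genes single genes stood at 0.739% (Bub1) to 125% (Rangap1) of that level in the control and at 14.4% (Cenpe) to 67.7% (Tmpo) in the RSPO1-Fc library. Yardsticks from the low end were chosen after the values were seen. Zg16, a goblet cell gene at 59.8 CPM in the RSPO1-Fc low-UMI barcodes, reached 0.0475% of that level in RSPO1-Fc epithelial cells. It was the lowest of 2596 genes compared, whose median was 99.3%. The blood gene Hbb-bs reached 1.11% in control cells, rank 5 from the lowest of 2447 genes, whose median was 121%. The part of free RNA in the levels of the 41 genes was not tested.

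Mitotic-class cells carried more UMIs than others, with medians of 49372 against 26430 in the control and 29258 against 21729 in the RSPO1-Fc library. Doublets were not called, and their part in the class was not tested; leaving out the 5% of cells with the most UMIs gave shares of 8.28% and 21.9%. Leaving out cells with at least 5 UMIs of macrophage, endothelial or fibroblast markers gave 9.32% and 22.8%, and leaving out those with at least 5 UMIs of neutrophil or pericyte markers (1729 control and 2726 RSPO1-Fc cells left) 9.54% and 22.7%, with a summed ratio of 1.49. Many cells of the class also held replication transcripts: 68.5% of control and 59.6% of RSPO1-Fc mitotic-class cells had UMIs of at least 8 S phase genes. That S phase limit alone was passed by a further 7.81% of the control (6.64 to 9.12) and 24.8% of the RSPO1-Fc cells (23.2 to 26.4). In those the 41 genes summed to 3024 and 3417 CPM, between the mitotic class and the remaining cells (980 and 2044 CPM).

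The share of mitotic-class cells was also counted in cells with and without a UMI of 8 epithelial marker genes among the 5000 drawn. Some of them are given here, chosen after their values were seen. Cells with a UMI of the Wnt target Ascl2 were in the class at 17.7% (12.6 to 23.7) without and 31.7% (27.2 to 36.6) with RSPO1-Fc, and cells without one at 8.50% (7.21 to 9.93) and 21.1% (19.4 to 22.8). For the stem cell receptor Lgr5 the shares were 7.39% with a UMI and 10.2% without (control), and 18.7% and 22.9% (RSPO1-Fc), with overlapping intervals. In the RSPO1-Fc library, cells with the differentiation keratin Krt20 stood at 16.5% (13.6 to 19.8) and those without at 24.3% (22.5 to 26.1). In the control, cells with the secretory gene Agr2 stood at 18.3% (14.8 to 22.2) against 6.70% (5.46 to 8.13), and in the RSPO1-Fc library the shares were 22.5% (18.5 to 26.9) and 22.6% (20.9 to 24.4). Spink4, another goblet cell marker, did not show the control gap, at 10.8% (5.08 to 19.6) with a UMI and 9.40% (8.09 to 10.8) without. Its RSPO1-Fc shares were 15.7% (8.11 to 26.4) and 22.8% (21.2 to 24.4).

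Inside the mitotic class the order of the libraries was the other way round. The 41 genes summed to 9205 CPM (9145 to 9265) over the 178 control cells and to 6659 CPM (6623 to 6696) in the 622 RSPO1-Fc cells, a ratio of 0.72 (0.72 to 0.73). Of 40 genes at 20 CPM in either, 9 stood higher and 31 lower. At least 2-fold, 0 were higher and 11 lower, against 5.15% and 14.5% of all 6714 genes. With TMM factors the summed ratio was 0.88, with 15 of the 40 higher and 25 lower. At least 2-fold, 2 were then higher and 6 lower, beside 583 higher and 639 lower of the 6714 genes under the same scaling. The reference genes, which set the class, had a summed ratio of 0.72 and the S phase genes of 0.76. Where the class was set on all UMIs of a cell, and so held many more cells, the ratio was 0.98.

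Ratios varied within and between the roles. Lower by the most were Dlgap5 with 75.0 and 24.5 CPM, a ratio of 0.33 (0.29 to 0.37), Ndc80 with 57.1 and 20.6 CPM (0.36), Mki67 with 489 and 180 CPM, 0.37 (0.35 to 0.38), Hmmr with 165 and 61.6 CPM (0.37) and Kif20b with 125 and 47.8 CPM (0.38). Top2a had 760 and 381 CPM, and Plk1 154 and 75.4 CPM. The higher side was led by the small Cdk1 subunits, Cks1b with 183 and 328 CPM, 1.79-fold (1.70 to 1.89), and Cks2 with 334 and 564 CPM, 1.69-fold (1.62 to 1.76), before Cdc25c (1.24), Ccnb1 (1.22) and Cdca3 (1.20). Mitotic entry genes had a median of 1.21, from Plk1 at 0.49 to Cks1b at 1.79, while kinetochore genes had 0.57 and spindle genes 0.51. Intervals lay above 1 for 6 of the 41 genes and below 1 for 29, a count that was not made over all genes. Of all 6714 genes at 20 CPM or more in either library, 4088 stood lower, with a median ratio of 0.88. With TMM factors Nusap1, Ube2c, Nuf2, Tacc3, Aurkb and Kif2c changed to the higher side.

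Of all genes at 20 CPM or more in either library, 2879 of 6911 stood higher over all epithelial cells. Inside the class 4088 of 6714 stood lower, and the genes that did both were not counted. For 24 of the 41 genes the ratio was above 1 over all epithelial cells and below 1 inside the class. Among them, Ube2c went from 2.08 to 0.86, Nusap1 from 2.06 to 0.87, Aurkb from 2.02 to 0.88, Nuf2 from 2.33 to 0.98, Tacc3 from 2.06 to 0.93, Kif2c from 1.84 to 0.87, Cdk1 from 1.85 to 0.74, Cdca2 from 1.58 to 0.69 and Smc4 from 1.44 to 0.77. Hmgb2 went from 1.36 to 0.68, Ttk from 1.35 to 0.57, Bub1 from 1.43 to 0.57, Ckap2l from 1.29 to 0.55, Tpx2 from 1.26 to 0.51, Anp32e from 1.19 to 0.81 and Plk1 from 1.19 to 0.49. The remaining 8 were Top2a (1.17 to 0.50), Ckap2 (1.16 to 0.46), Hjurp (1.14 to 0.69), Tubb4b (1.14 to 0.67), Cenpf (1.12 to 0.48), Kif11 (1.09 to 0.44), Tmpo (1.08 to 0.72) and Cenpe (1.05 to 0.46). Transcript length moved with this ratio too, at r = −0.67 across the 41 genes and −0.22 across 6681 genes, and its part was not tested.

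Outside the class the same genes stood higher with RSPO1-Fc. Their summed level was 1241 CPM in the 1703 other control cells and 2556 CPM in the 2129 other RSPO1-Fc cells, 2.06-fold higher (2.04 to 2.08). Of the 41 genes 40 stood higher, with a median ratio of 2.73. At 20 CPM or more in either library, 24 of 25 stood higher, with a median of 2.87. Over all genes at that level 2864 of 6906 did, with a median of 0.88. Of the 25, 12 reached that level with RSPO1-Fc alone. Cdc20 had 9.14 and 58.9 CPM, 6.45-fold, Nusap1 4.06 and 24.9 CPM, 6.13-fold, and Ccnb1 6.26 and 37.6 CPM, 6.02-fold. Rangap1 alone of the 41 stood lower, with 124 and 96.1 CPM.

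**Figure D3:**
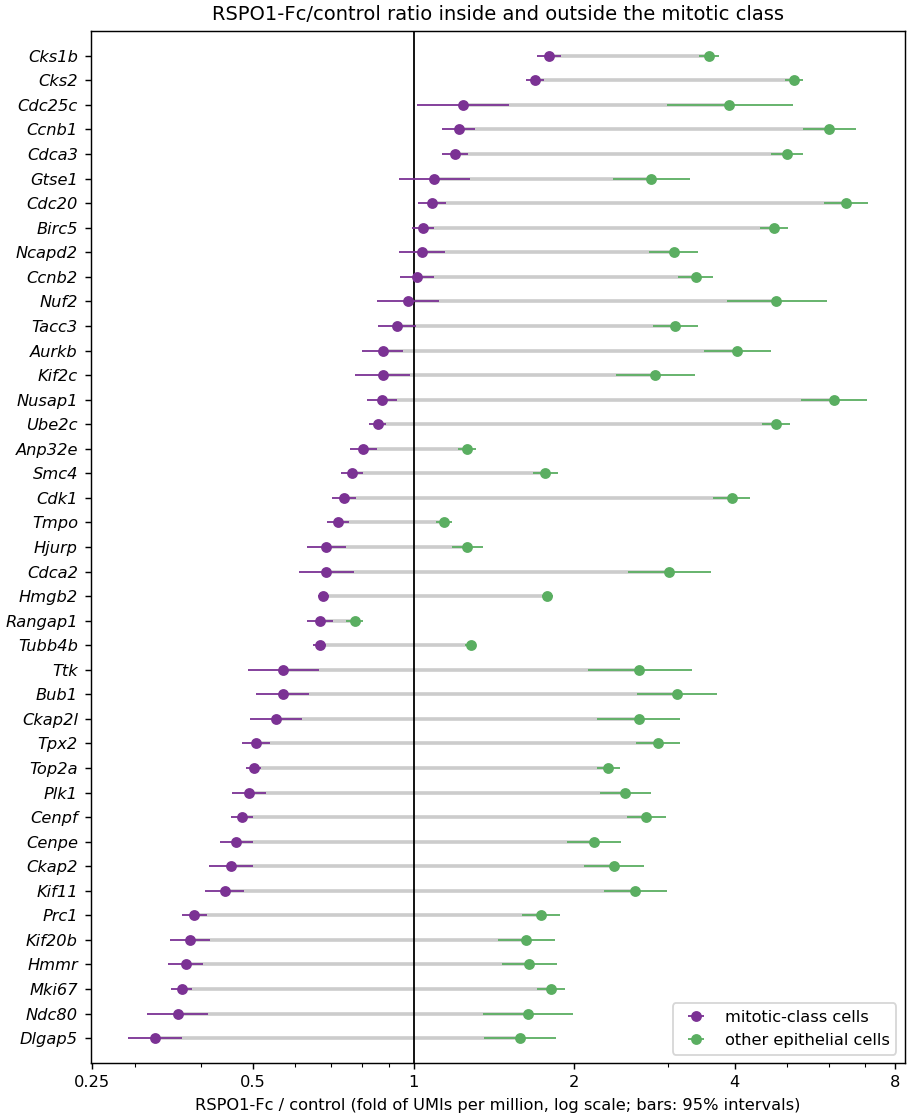
Ratio of RSPO1-Fc to control for each mitosis gene (log axis, bars are 95% counting intervals) inside the mitotic class and in the other epithelial cells. Mitotic-class ratios run from 0.33 (Dlgap5) to 1.79 (Cks1b), and in the other cells all genes but Rangap1 lie above 1.

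The step from other cells to the mitotic class was therefore larger in the control for each of the 41 genes, a count that was not made over all genes. The summed level was 7.42 times as high in the class in the control (7.34 to 7.49) and 2.61 times in the RSPO1-Fc library (2.59 to 2.63). Over the 41 genes the step ran from 1.74-fold to 38.1-fold in the control, with a median of 16.4, and from 1.5-fold to 5.43-fold in the RSPO1-Fc library, with a median of 3.33. Over all genes at 20 CPM or more in either group of cells the medians were 0.98 and 1.00. The 40 (control) and 39 (RSPO1-Fc) of the 41 genes at that level had medians of 16.4 and 3.28. Of these, 27 and 14 reached it in the mitotic class alone. Nusap1 had the largest step, 38.1-fold (33.2 to 44) among control and 5.43-fold (5.07 to 5.81) among RSPO1-Fc cells, followed in the control by Cenpf with 27.0-fold (4.72-fold with RSPO1-Fc) and among RSPO1-Fc cells by Cenpe with 4.74-fold. Subtracting the low-UMI profile as 25% of UMIs gave summed steps of 12.8 and 3.43. At that setting only 34 of the 41 genes stayed above 0 in the control, against 41 in the RSPO1-Fc library. With 10% all 41 did in both, and the steps were 8.92 and 2.86. These percentages were settings and not estimates of free RNA. Both lie above the level of Bub1 in control cells with 0 reference genes, which was 0.739% of its low-UMI level.

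The same 5 genes had the smallest step in both libraries. These were Rangap1 (1.74-fold, control, and 1.5-fold, RSPO1-Fc), Anp32e (2.45 and 1.56), Tmpo (2.71 and 1.72), Hjurp (3.48 and 1.90) and Tubb4b (3.65 and 1.90). They were also present in cells with 0 reference genes, where they made 64.8% of the control and 34.5% of the RSPO1-Fc UMIs of the 41 genes. In those control cells Rangap1 stood at 119.6 CPM and Tubb4b at 187 CPM, while Bub1 stood at 0.105 CPM from 2 UMIs and Nusap1 at 0.314 CPM from 6. In the same cells of the RSPO1-Fc library Bub1 stood at 2.30 CPM and Nusap1 at 8.37 CPM.

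**Figure D4:**
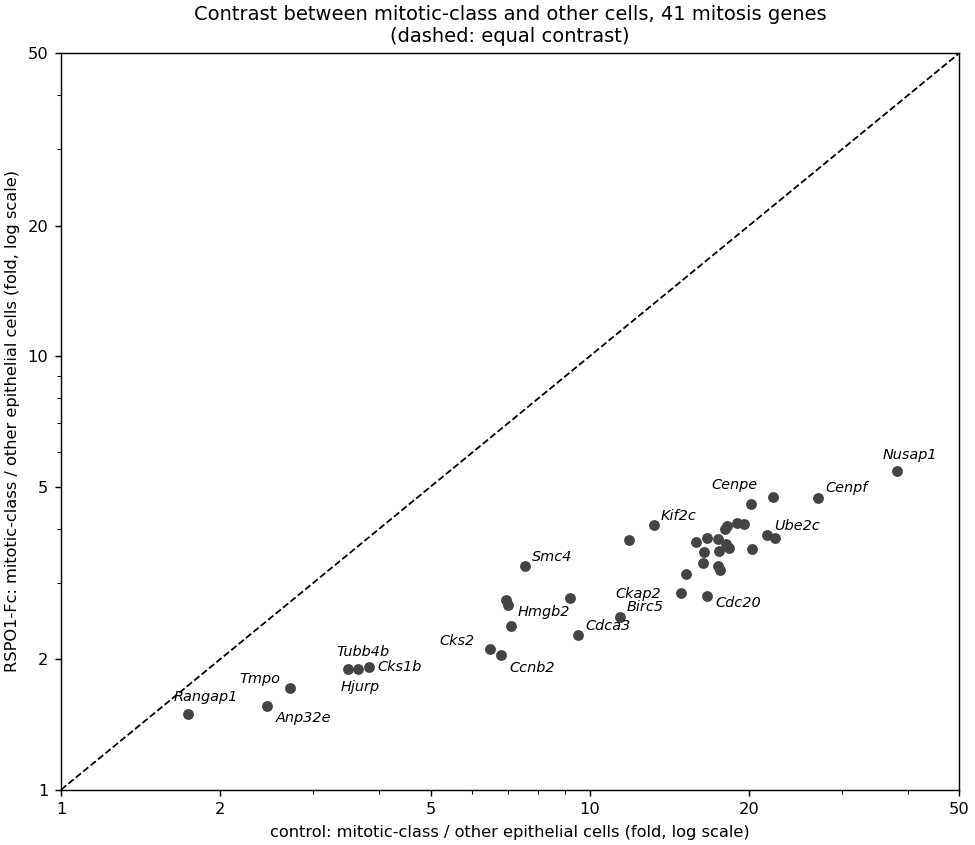
Fold between mitotic-class and other epithelial cells for each mitosis gene, control on the horizontal and RSPO1-Fc on the vertical axis (both log). All 41 points lie below the dashed line of equal fold, from Rangap1 (1.74 and 1.5) to Nusap1 (38.1 and 5.43).

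Coordination was measured as the Pearson correlation across cells of a gene with the summed other 40, on log(1 + UMIs) among the 5000 drawn. The cells of a library share their droplet run, so these are descriptions. The median over the 41 genes was 0.46 without and 0.32 with RSPO1-Fc, and 36 genes correlated more strongly in the control. By rank correlation the medians were 0.33 and 0.32, so the gap was absent on that scale. The most closely linked genes in the control were Mki67 (0.69), Hmgb2 (0.68), Top2a (0.67), Ube2c (0.65) and Cenpf (0.63), and in the RSPO1-Fc library Hmgb2 (0.65), Top2a (0.60), Ube2c (0.57), Cenpf (0.49) and Birc5 (0.48). The loosest in the control were Gtse1 (0.14), Rangap1 (0.16), Cdc25c (0.21), Anp32e (0.22) and Nuf2 (0.27), and in the RSPO1-Fc library Ndc80 (0.16), Cdc25c (0.17), Gtse1 (0.17), Hjurp (0.18) and Dlgap5 (0.20). Of the loose genes Gtse1 (6.77 and 14.7 CPM), Cdc25c and Nuf2 had few UMIs, whereas Rangap1 and Anp32e had over 100 CPM in both libraries.

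The 5 genes that correlated more strongly with RSPO1-Fc were Cks1b (0.34 and 0.41), Tubb4b (0.43 and 0.45), Gtse1, Rangap1 and Anp32e. The number of UMIs of the 41 genes per 5000 had medians of 4 (control) and 11 (RSPO1-Fc), 90th percentiles of 26 and 37 and maxima of 134 and 88. Its variance was 25.6 times its mean without and 11.2 times with RSPO1-Fc. Inside the mitotic class the median correlation was 0.32 and 0.20.

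Control cells under the Epcam limit were put in a class by at least 4 of its markers at 2 or more UMIs each. The macrophage-like class held 169 cells, the endothelial-like 78 and the fibroblast-like 72, in which their own 8 markers summed to 18364, 6596 and 22251 CPM, with 1 fibroblast marker at 0, and the 6 epithelial markers to 91.8, 69.3 and 155.9 CPM. Levels of the 41 genes were lower than in control epithelial cells (2430 CPM) in each, at 1400 CPM (1356 to 1446) in macrophage-like, 1095 CPM (1044 to 1147) in endothelial-like and 1178 CPM (1115 to 1245) in fibroblast-like cells. The last 2 intervals overlap, and the macrophage-like interval lies above both. These intervals count UMIs and do not cover the spread between cells, so they do not settle the order of the types. Much of each level came from 9, 2 and 4 mitotic-class cells, without which the levels were 665, 599 and 466 CPM. At 0.5 of the UMI limit the endothelial-like and fibroblast-like cells changed order (1024 and 961 CPM). Of the 41 genes 39, 41 and 40 stood lower than in epithelial cells. Most genes did so too. Among all genes at 20 CPM or more in either group, 4954 of 7472, 4333 of 7569 and 4435 of 7811 stood lower. Their median ratios were 0.72, 0.90 and 0.88, beside 0.63, 0.40 and 0.51 for the 28 of the 41 genes at that level. Of these 28, 6, 11 and 10 reached 20 CPM in the epithelial cells alone, so the limit itself set their ratios below 1.

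Levels of single genes ordered the types differently. Mki67 had 86.2 CPM (75.5 to 98.0) in macrophage-like, 72.9 CPM (57.8 to 90.7) in fibroblast-like and 29.7 CPM (21.9 to 39.4) in endothelial-like cells, against 98.4 CPM in control epithelial cells. In the same order, 157 of 233, 76 of 80 and 46 of 48 Mki67 UMIs came from the few mitotic-class cells. Tubb4b had 94.7 CPM (83.5 to 107) in macrophage-like, 189 CPM (164 to 216) in fibroblast-like and 207 CPM (185 to 230.0) in endothelial-like cells, against 329 CPM in epithelial cells. Hmgb2 was lower in all 3 types, at 216, 101 and 85.7 CPM in macrophage-like, endothelial-like and fibroblast-like cells against 370 CPM.

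By the same thinning and limit, 9 macrophage-like cells were in the mitotic class, 5.33% (2.46 to 9.87), 2 endothelial-like, 2.56% (0.312 to 8.96), and 4 fibroblast-like, 5.56% (1.53 to 13.6). These intervals overlap one another, and the number of cells does not separate them. Against the 9.46% of control epithelial cells, the upper bound for macrophage-like cells lies just above it. In these few cells the 41 genes summed to 8667, 18371 and 10355 CPM, and in the rest of each type to 665, 599 and 466 CPM, all under the 1241 CPM of the other control epithelial cells. Outside the class, Nusap1 had 0 UMIs in endothelial-like and fibroblast-like cells and 14 in macrophage-like ones, while Rangap1 had 69, 39 and 111. Of the 41 genes, 10 were at 0 UMIs in the endothelial-like and 16 in the fibroblast-like cells outside the class.

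**Figure D5:**
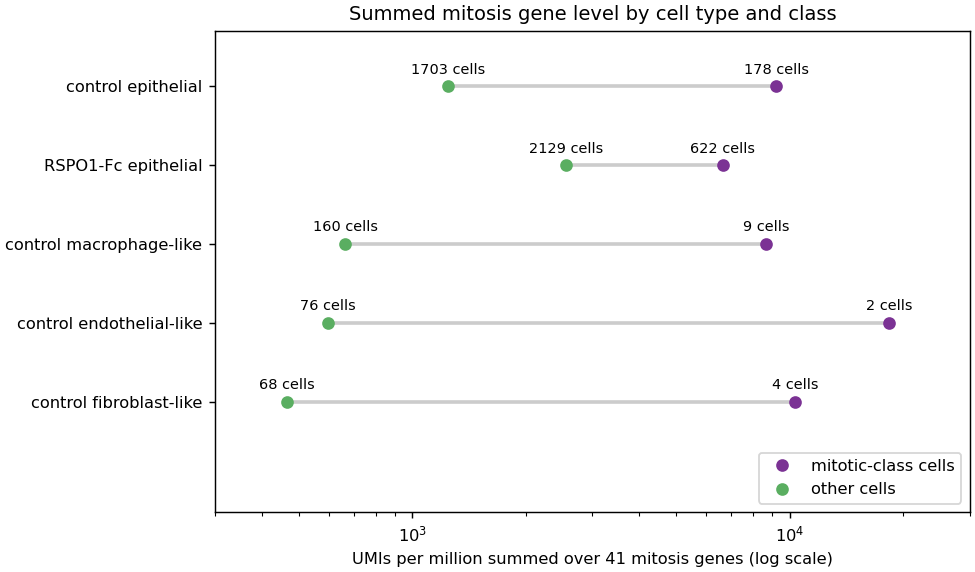
Summed level of the 41 mitosis genes in CPM (log axis) in mitotic-class and other cells of each type, with the number of cells. Mitotic-class cells lie between 6659 and 18371 CPM and other cells between 466 and 2556 CPM, the highest of the latter being the RSPO1-Fc epithelial cells.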

How the data were processed

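Per the labels' protocols both libraries used the 10x Chromium 3′ system with v2 reagents, and reads were aligned to mm10 with Cell Ranger. Versions 2.1.1 of Cell Ranger and 3.1.1 of Seurat are given in the submitters' processing notes. The authors deposited whole-number UMI counts for each gene in each barcode, without scaling and with empty droplets still included. The control matrix names a later Cell Ranger version, per the file headers, and its barcode list is of another length, so the chemistry of the control is uncertain. The labels state 5000 cells in each sample; 2269 and 2767 barcodes passed the UMI limits. UMIs totalled 91675581 (control) and 89437327 (RSPO1-Fc).

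Counts were joined on 27514 shared Ensembl identifiers with Python 3.11.15, summed over cells and scaled to CPM. The 10x method does mark strand, and 0 members overlap a gene of only 1 table on the same strand. Ratios carry conditional Clopper-Pearson intervals, levels exact Poisson and shares Clopper-Pearson intervals. A gene counted as different with at least 20 CPM in either group and a 2-fold ratio. Cells were thinned to 5000 UMIs without replacement, which left out 0 epithelial cells. TMM factors came from edgeR 4.0.16. The procedure was tested on simulated data. Doublets were not called. Low-UMI barcodes, over 100 and up to 500 UMIs, numbered 55413 and 66175.

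All 41 members are accounted for by role; full values go to the 5 highest and 5 lowest ratios, the members whose ratio turns inside the mitotic class, the 5 highest and lowest correlations, the 5 smallest steps to the mitotic class, and up to 4 genes of each other list. The members and lists were chosen with earlier results of these data known. The rule that sorts non-epithelial cells was set after seeing the data. Coordinates are from GRCm38.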

Additional observations from a re-analysis of the deposited data

Results flagged for a closer look

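In control cells under the Epcam limit, 32 fell in no class: 27 had fewer than 4 markers of each class, and 5 had 4 or more of several classes. They are in no comparison of the report. The 41 genes summed to 4440 CPM (4264 to 4622) in them, above the 2430 CPM of control epithelial cells and the levels of the 3 named types. Of the 32, 11 were in the mitotic class, 34.4% (18.6 to 53.2), where the genes summed to 10741 CPM, and the other cells stood at 966 CPM. Their median total was 13780 UMIs, and 2 of them carried 4 neutrophil markers. The cells of no class were not compared with others by a test.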

How the results depend on the processing

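The ratio of 1.51 over all epithelial cells stayed above 1 under each alternative tried: 1.91 with TMM factors, 1.72 as a mean over cells, 1.74 from 5000 UMIs per cell, 1.62 without the 5% of cells with the most UMIs, 1.53 without cells carrying macrophage, endothelial or fibroblast markers, 1.49 without cells carrying neutrophil or pericyte markers (chosen after seeing the data), and 1.54 and 1.61 with the low-UMI profile subtracted as 10% and 25% of UMIs. The count of members at least 2-fold different was 10 to 15. The mitotic shares were 14.1% and 39.8% (control and RSPO1-Fc) with at least 5 reference genes, 5.21% and 7.16% with 12, 6.22% and 8.62% from 3000 UMIs, and 28.4% and 64.8% from all UMIs. The order of the libraries was the same in each, but the ratio of the shares was not. The ratio inside the class, 0.72, was 0.75 and 0.69 with 5 and 12 genes, 0.70 from 3000 UMIs (0.698), 0.699 with another random draw, 0.88 with TMM factors and 0.98 with the class set on all UMIs. The step between classes was 8.92 and 2.86 with the profile subtracted as 10% of UMIs and 12.8 and 3.43 as 25%; this alternative was chosen after seeing the data. Median correlations were 0.33 in the control by rank, 0.38 and 0.24 from 3000 UMIs, 0.32 and 0.20 in mitotic-class cells, and 0.45 in the control with another draw. At 0.5 of the UMI limit the macrophage-like, endothelial-like and fibroblast-like levels were 1210, 1024 and 961 CPM. The cause of these moves was not tested.

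No paired analysis was possible because each group held 1 library. No replicate was left out for the same reason, and RSPO1-Fc cannot be told apart from the chemistry, the organoid source and the culture.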

Other observations

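Pericyte-like control cells, 37 in number, carried the 41 genes at 1297 CPM (1201 to 1398), and 2 of them were in the mitotic class, 5.41% (0.661 to 18.2). Cells with a UMI of Clu, a gene of the regenerating epithelium, were in the class at 7.59% (6.09 to 9.32) against 12.1% (9.88 to 14.6) without one in the control, and at 21.6% (19.9 to 23.3) against 28.6% (24.2 to 33.4) in the RSPO1-Fc library. The shares for Smoc2, a stem cell gene, were 8.50% with a UMI and 10.4% without (control), and 21.7% and 22.8% (RSPO1-Fc), with overlapping intervals.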
